A study of Mus musculus with 23 samples.

Results

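The catalytic subunits of the proteasome were followed in fetal thymic epithelial cells (TECs) of the mouse: the constitutive subunits Psmb5, Psmb6 and Psmb7, the immunoproteasome subunits Psmb8, Psmb9 and Psmb10, and the thymoproteasome subunit Psmb11 (β5t). They were taken by symbol, through their Ensembl identifiers, as 7 of the 50123 genes in the count table, and all 7 passed the filter on low counts that left 19140 genes for testing. RNA had been sequenced from 23 Smart-seq2 libraries of 100 sorted TECs each, in which fewer expressing cells and less RNA per cell cannot be told apart.

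The libraries fell into 7 groups of embryos on a C57BL/6 background. Foxn1Cre RbpjFL/FL embryos (*Rbpj* cKO, in which Cre, expressed from *Foxn1* in TECs, deletes the nuclear mediator of NOTCH signaling) and their controls, labelled wild type, gave 3 libraries each of PLET1+ TECs at E12.5 and of PLET1+ and PLET1- TECs at E14.5. According to the methods of the study the controls were littermates from a cross in which each embryo carried at least 1 floxed *Rbpj* allele, and each age came from 2 litters on 2 days. Foxn1Cre Rosa26FL-STOP-FL-NICD-IRES-EGFP embryos, in which the NOTCH intracellular domain is expressed after Cre acts, gave 5 libraries of E14.5 PLET1+ TECs. The NICD libraries came from 5 embryos of 1 litter, were sorted in another laboratory and form a batch of their own, so that genotype, litter, laboratory and batch cannot be told apart in any comparison that includes them. Age likewise went with the labelled batch (1 and 2 at E12.5, 3 and 4 in the *Rbpj* cross at E14.5), and p-values measure the spread between libraries, of which some share a litter.

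The 20S proteasome is a barrel of α and β rings in which β1, β2 and β5 cut proteins. Most cells use Psmb6 (β1), Psmb7 (β2) and Psmb5 (β5). Cells exposed to interferon, and many hematopoietic cells, replace them by Psmb9 (β1i), Psmb10 (β2i) and Psmb8 (β5i), while cortical TECs (cTECs) place Psmb11 (β5t) at the β5 position together with β1i and β2i, a particle called the thymoproteasome that produces peptides for the positive selection of CD8+ thymocytes. *Psmb11* is a known target of FOXN1 and a marker of the cTEC lineage, whereas the immunoproteasome genes are known targets of interferon signaling through IRF1.

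In GRCm38, *Psmb5* (ENSMUSG00000022193.6, chr14:54614120-54617995, minus strand) and *Psmb11* (ENSMUSG00000072423.4, chr14:54625310-54629556, plus strand) lie head to head with starts 7315 bp apart. *Psmb9* (ENSMUSG00000096727.2, chr17:34181988-34187764, minus) and *Psmb8* (ENSMUSG00000024338.14, chr17:34197721-34201454, plus) lie in the class II region of the MHC beside the peptide transporter genes *Tap1* and *Tap2*, within 34334 bp. *Psmb6* (ENSMUSG00000018286.6, chr11:70525367-70527858, plus), *Psmb7* (ENSMUSG00000026750.6, chr2:38588036-38644087, minus) and *Psmb10* (ENSMUSG00000031897.9, chr8:105935735-105938444, minus) lie apart from the other members. Fragments that overlapped more than 1 gene were not counted. *Psmb5* shares 109 of its 871 bp of exons with *Mir686*, and *Psmb8* shares 186 of its 2736 bp with *Gm20496*. *Psmb7* shares 11.8% of its exon length with *Nek6* and *Psmb9* 5.79% with *Tap1*. Reads of these members that fell on the shared stretches were therefore lost. The pseudogenes of *Psmb5*, *Psmb6* and *Psmb7* never had more than 49 counts in a library.

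RefSeq promoter windows (GRCm38.p6, the 250 bases before the start) were at hand for 6 members, all but *Psmb7*, and were searched on both strands for 6 short motifs of factors known to act on such genes. Site positions count from the RefSeq start, which is not the gene start printed above for every member. It is base 34198195 for *Psmb8*, 34187330 for *Psmb9*, 105938392 for *Psmb10* and 70525357 for *Psmb6*, and the same base for *Psmb5* and *Psmb11*. The sites below are shown so that the matches of each member can be set beside its values. Each is a stretch of 30 bases, 5′ to 3′ on the strand of the gene, with the match in capitals. The first pair holds the FOXN1 core GACGC before *Psmb11*, at -239 and -62, between annotated genes, read as its reverse complement (chr14:54625060-54625089 and chr14:54625236-54625265, plus strand).

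Psmb11, -239: gctgacaggtgGCGTCttcagagtgtagga
Psmb11, -62: agcttctccacaGCGTCctcctcctcctcc

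The same core stood once before the RefSeq start of *Psmb8*, at -193 (chr17:34197990-34198019, plus strand), which lies within an exon of the *Psmb8* gene as GENCODE draws it. It occurs at least once in 22.6% of the 32851 promoter windows searched, and 5.86% hold 2 or more matches.

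Psmb8, -193: ccccatccccagGACGCacgcctaggtgga

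The RBPJ core TGGGAA, present in 21.6% of windows, was found as its reverse complement in the windows of the 3 immunoproteasome subunits and in no other member searched: *Psmb8* at -97 (chr17:34198086-34198115, plus strand), *Psmb9* at -189 (chr17:34187502-34187531, minus strand) and *Psmb10* at -127 (chr8:105938502-105938531, minus strand). The first pair lies within GENCODE exons of *Psmb8* and *Psmb9*, and the last upstream of *Psmb10* and in an intron of *Gm16156*.

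Psmb8, -97: agtcctccgctgTTCCCAgaagatgccccc
Psmb9, -189: cttgcgtgaattTTCCCAtcccaggcccca
Psmb10, -127: acctgagtttggTTCCCAacgcccacgtgg

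The antioxidant response core TGACNNNGC, bound by the NFE2L1 and NFE2L2 factors and held by 10.2% of windows, lay before the constitutive subunits *Psmb5* at -47 (chr14:54618023-54618052, minus strand) and *Psmb6* at -9 (chr11:70525327-70525356, plus strand), both between annotated genes. The GC box GGGCGG, held by 32.7% of windows, had one in *Psmb6* and one in *Psmb9*. A match describes the letters of the window and is not a measured binding site.

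Psmb5, -47: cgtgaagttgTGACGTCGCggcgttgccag
Psmb6, -9: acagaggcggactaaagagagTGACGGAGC

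The libraries held between 20053241 and 92699969 counts on genes, with mitochondrial shares of 4.21 to 14.6%. The deleted gene *Rbpj* had 18.4 to 20.4 CPM (read counts scaled to a common library size with TMM factors) in E14.5 PLET1+ controls and 0.061 to 10.4 CPM in the cKO, 9.5 to 26.1 CPM against 3.42 to 8.28 CPM in PLET1- cells, and 15.1 to 37.9 CPM against 2.09 to 16.2 CPM at E12.5, where the groups overlapped. *Notch1*, whose intracellular domain the NICD allele encodes, was at 30.4 to 86.9 CPM in NICD and 16.7 to 18.4 CPM in controls. *Plet1* was at 10.2 to 65.1 CPM in the PLET1+ libraries and 0 to 6.3 CPM in the PLET1- ones. The 10 thymocyte and other hematopoietic markers, of cells that use the immunoproteasome, summed to 0.0565 to 59.1 CPM per library. In single libraries *Lck* reached 58.7 CPM, *Coro1a* 16.7, *Ptprc* 13.4, *Cd3g* 7.51 and *Laptm5* 4.24. *Rag1*, *Ptcra*, *Cd3e* and *Il7r* did not exceed 0.354, 0.345, 0.0948 and 0.0276 CPM, and *Tyrobp* had no count in any of the 23 libraries. The part of these markers in the values of the subunits was not tested.

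Per length of transcript, the constitutive subunits *Psmb6* and *Psmb5* led in E14.5 PLET1+ control TECs. Over the summed exon length of each gene, *Psmb6* stood at 531 CPM per kb, *Psmb5* at 302, *Psmb10* at 162, *Psmb11* at 100, *Psmb7* at 79.9, *Psmb9* at 26.8 and *Psmb8* at 2.46 (means of 3 libraries). With the length of the principal transcript instead, *Psmb7* moved up to 236 CPM per kb, above *Psmb10* at 211 and *Psmb11* at 100, while *Psmb6* (1250 CPM per kb) and *Psmb5* (293 CPM per kb) still led and *Psmb8* (4.14 CPM per kb) was still last. Levels are compared between genes only on these scales, and all levels below are CPM of 1 gene across groups unless said otherwise.

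*Psmb5*, the constitutive β5 subunit, was at 153, 178 and 319 CPM in controls and 203, 324 and 86.8 in cKO at E12.5. At E14.5 PLET1+ controls were at 253, 265 and 271 CPM and PLET1+ cKO at 135, 240 and 260. It was at 221, 272 and 276 CPM in PLET1- controls, 277, 213 and 308 in PLET1- cKO, and 78.1, 114, 71.3, 56.8 and 113 in NICD. The 5 NICD libraries lay below all E14.5 libraries of the *Rbpj* cross, and the other 6 groups overlapped with their neighbours in the order of means.

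*Psmb11*, the β5t subunit of cTECs, was at 133, 87.8 and 72.8 CPM in controls and 123, 239 and 36.7 in cKO at E12.5. At E14.5 PLET1+ controls were at 404, 490 and 386 CPM and PLET1+ cKO at 377, 888 and 857. PLET1- controls stood at 718, 910 and 914 CPM, PLET1- cKO at 1060, 1310 and 1390, and NICD at 99.8, 215, 121, 171 and 207. The NICD libraries lay within the range of the 6 E12.5 libraries and below every other E14.5 library, and the PLET1- cKO libraries lay above all others.

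*Psmb8*, the β5i subunit, had 0 counts in all 6 E12.5 libraries, which allows up to 0.0491 to 0.17 CPM per library at 3 counts. At E14.5 it was at 13.5, 4.97 and 1.8 CPM in PLET1+ controls, 5.92, 5.6 and 2.54 in PLET1+ cKO, 4.8, 4.68 and 7.51 in PLET1- controls and 4.33, 2.81 and 6.03 in PLET1- cKO. The 5 NICD libraries split into 3 with 12.4, 10.4 and 9.79 CPM and 2 with 0.0276 and 0.0882 CPM, which rest on 2 and 7 counts. Every E14.5 library of the *Rbpj* cross had the transcript, at a low level that overlapped between all 4 groups.

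*Psmb9*, the β1i subunit, was at 0.499, 16.2 and 6.41 CPM in controls and 10.9, 29.2 and 27.7 in cKO at E12.5. At E14.5 PLET1+ controls were at 104, 106 and 84.8 CPM and PLET1+ cKO at 242, 191 and 171. PLET1- controls were at 243, 177 and 190 CPM, PLET1- cKO at 371, 270 and 325, and NICD at 26.9, 64.1, 41.4, 101 and 110. PLET1+ controls were thus separate from PLET1+ cKO, and PLET1- controls from PLET1- cKO, while NICD overlapped both E12.5 cKO and E14.5 PLET1+ controls.

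*Psmb10*, the β2i subunit, was at 94.2, 89.2 and 104 CPM in controls and 121, 218 and 123 in cKO at E12.5. At E14.5 PLET1+ controls were at 351, 273 and 205 CPM and PLET1+ cKO at 410, 395 and 364. It reached 617, 505 and 471 CPM in PLET1- controls and 928, 489 and 641 in PLET1- cKO, and was at 182, 258, 157, 241 and 182 in NICD. The order of the 7 group means was the same for *Psmb9*, *Psmb10* and *Psmb11*: E12.5 control, E12.5 cKO, NICD, PLET1+ control, PLET1+ cKO, PLET1- control, PLET1- cKO.

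The constitutive β1 and β2 subunits did not follow that order. *Psmb6* had group means from 961 CPM ± 376 (SD, n = 3) in PLET1- controls to 1870 CPM ± 346 (SD, n = 5) in NICD, and replicate 1 of each of the 4 E14.5 groups of the *Rbpj* cross stood high, at 1430, 2280, 1390 and 1930 CPM against 675 to 837 CPM in their replicates 2 and 3. The mitochondrial share of those 4 libraries was 7.8 to 9.54%, against 4.21 to 5.36% in the other 8, and its part in the values of *Psmb6* was not tested apart from the covariate fit given in the closing section. *Psmb7* was at 300, 241 and 532 CPM in E12.5 controls, 312, 398 and 601 in the cKO of that age, between 213 and 305 CPM in the E14.5 libraries of the *Rbpj* cross other than replicate 1 of the PLET1- cKO, which stood above them, and at 239, 212, 125, 156 and 160 in NICD. *Psmb7* had its highest means at E12.5, 358 CPM ± 154 (SD, n = 3) in controls and 437 CPM ± 149 in cKO, and its lowest in NICD, 178 CPM ± 46.2 (SD, n = 5), and each group overlapped the next in the order.

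**Figure D1:**
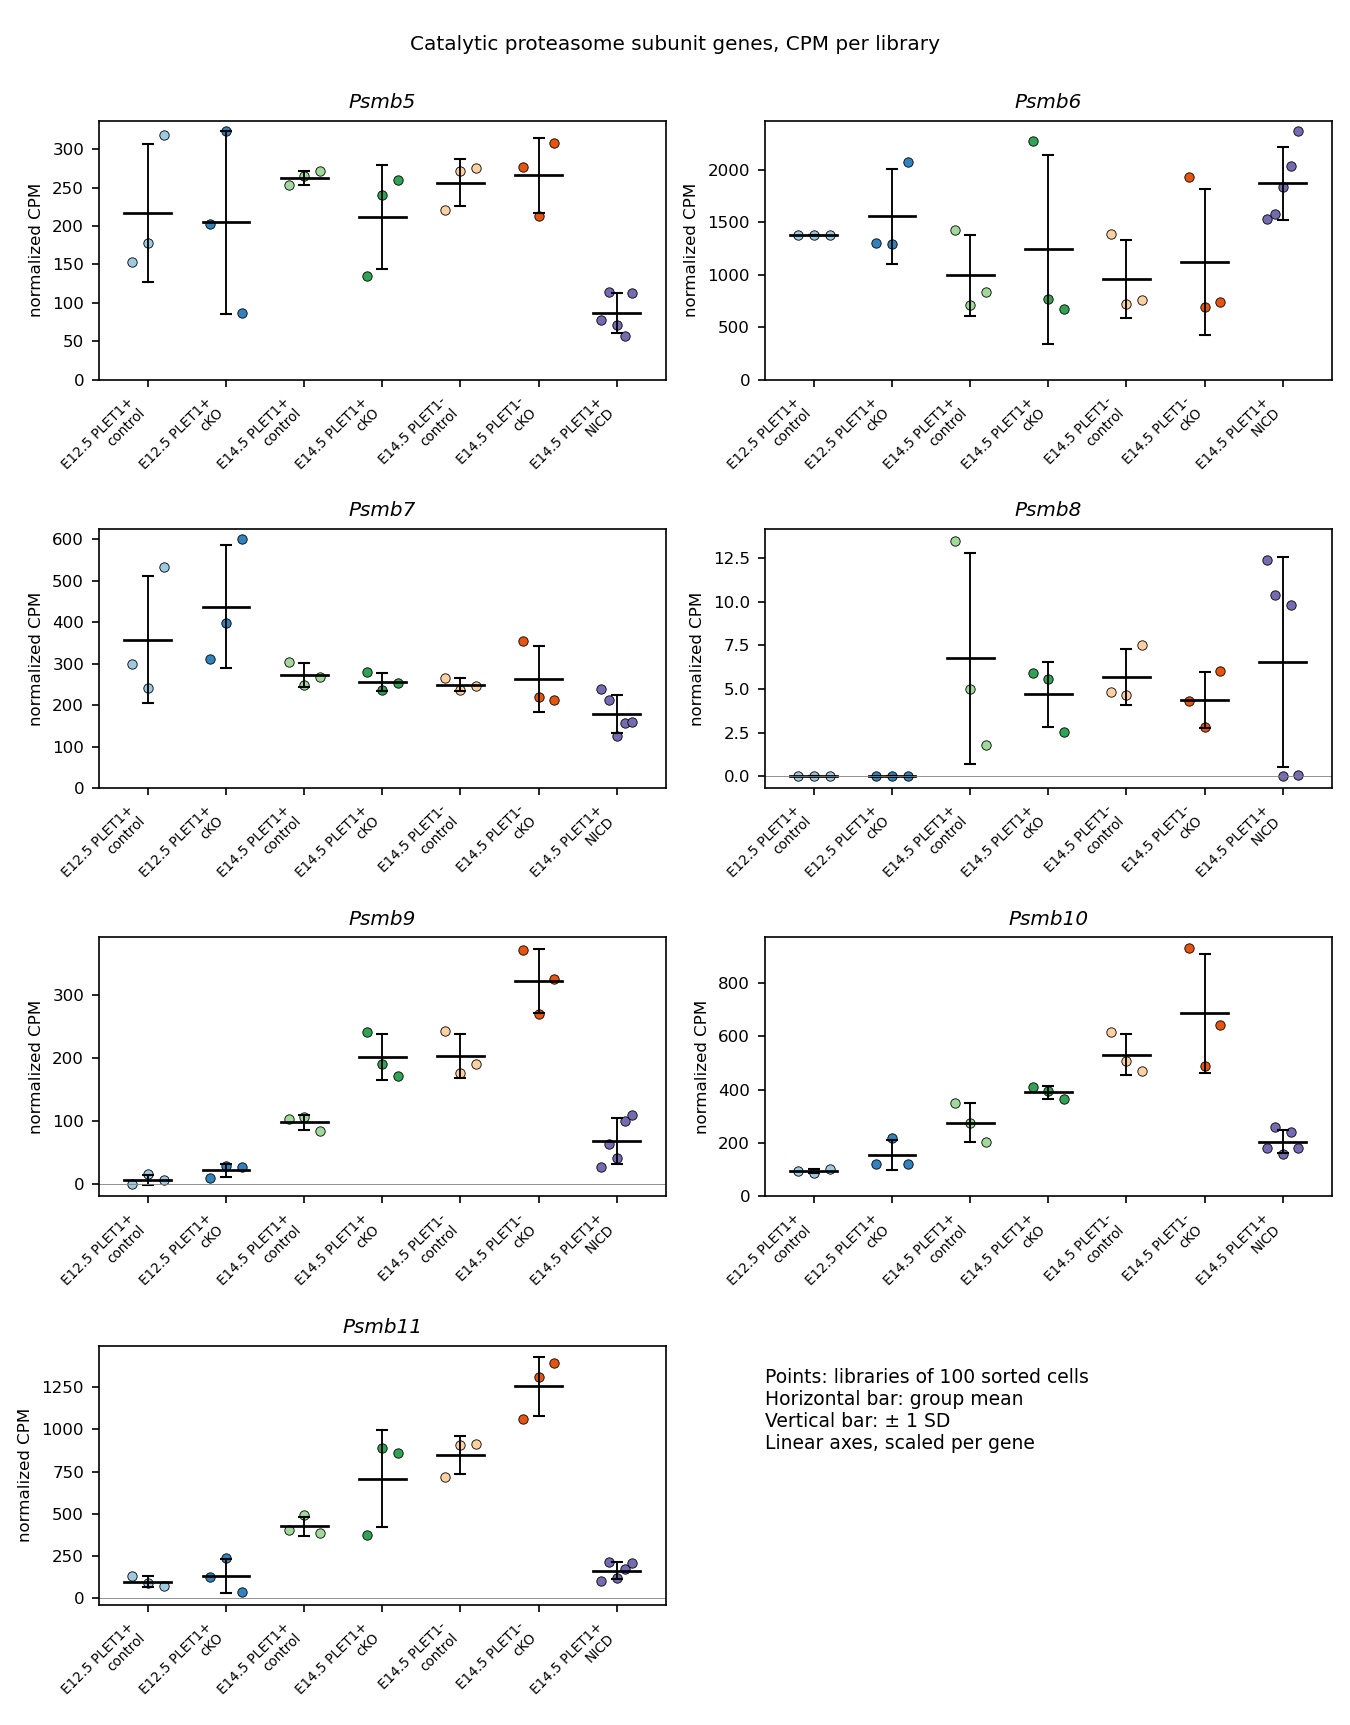
Level of each of the 7 catalytic subunits in CPM (vertical axes, one panel a gene) in the 23 libraries, ordered by group, with points for libraries and bars for the group mean and SD. *Psmb8* sits at 0 in the 6 E12.5 libraries, the means of *Psmb9*, *Psmb10* and *Psmb11* go up from E12.5 to the PLET1- cKO, and the mean of *Psmb5* is lowest in NICD, at 86.5 CPM.

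Across all 23 libraries, log2(CPM + 1) of *Psmb10* and *Psmb11* varied with Pearson's r = 0.902, of *Psmb9* and *Psmb10* with r = 0.893, and of *Psmb9* and *Psmb11* with r = 0.792. *Psmb8* and *Psmb10* had r = 0.68, and *Psmb6* ran against *Psmb5* (r = -0.66) and *Psmb11* (r = -0.628). These are descriptions over libraries that share groups and batches. Among genes with a mean of at least 5 CPM, the pattern most like that of *Psmb11* was that of *Prss16*, the thymus-specific serine protease of cTECs (r = 0.935), followed by *Dctn1* (0.926), the chemokine gene *Cxcl12* (0.916), *Ptpn22* (0.913) and *Pdlim1* (0.909). The patterns most like that of *Psmb8* were weaker: *Fmo1* (r = 0.814), the interferon-induced conjugating enzyme gene *Ube2l6* (0.811), *H2-DMb1* (0.796), *Gbp3* (0.793) and *Impa1* (0.791).

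The first question was how the subunits differed between E12.5 and E14.5 in PLET1+ TECs. With control and cKO in 1 comparison (6 against 6 libraries), the 3 immunoproteasome subunits and *Psmb11* rose and none of the 3 constitutive subunits was called. *Psmb11* was higher at E14.5 by 2.39 on the log2 scale (SE 0.288), *Psmb9* by 3.40 (SE 0.548) and *Psmb10* by 1.42 (SE 0.198), with adjusted p-values of 8.25e-05, 0.00121 and 0.000303 in edgeR's quasi-likelihood test. *Psmb8* was at least 53.7-fold higher, computed against 3 counts per library at E12.5 (adjusted p = 0.00203, edgeR). These 4 of 7 members compare with 5.15% of all genes called in this comparison, and with 3.5% called higher at E14.5.

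The constitutive subunits differed by 0.16 on the log2 scale for *Psmb5* (adjusted p = 0.823), -0.43 for *Psmb6* (0.402) and -0.52 for *Psmb7* (0.0925, edgeR). The libraries of *Psmb8*, *Psmb9* and *Psmb11* did not overlap between the ages, as was so for 4.07% of genes. Within the pairs of batches that hold replicates 1 and 2 of each age, *Psmb9*, *Psmb10* and *Psmb11* were higher at E14.5 by 3.5, 1.45 and 1.89 on the log2 scale, and in the pair that holds replicate 3 by 2.91, 1.33 and 3.5. The parathyroid markers *Gcm2*, *Pth* and *Casr* also went with age, summing to 661 to 8790 CPM in the E12.5 libraries and 0.458 to 388 CPM in the E14.5 PLET1+ libraries of the *Rbpj* cross, and their part in the differences was not tested.

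Taken by genotype, control TECs showed the same 4 subunits called: *Psmb8* at least 88.2-fold higher (adjusted p = 0.0403, edgeR), and *Psmb9*, *Psmb10* and *Psmb11* higher by 3.65, 1.5 and 2.11 on the log2 scale (adjusted p = 0.0272, 0.0122 and 0.0141, edgeR), where 0.967% of all genes were called. In the cKO, *Psmb10* (1.35, adjusted p = 0.0317) and *Psmb11* (2.66, adjusted p = 0.00396, edgeR) were called, where 0.784% of genes were. *Psmb9* stood 3.16 higher there (adjusted p = 0.0682) and *Psmb8* at least 34.4-fold higher (adjusted p = 0.0737, edgeR). The libraries of *Psmb8*, *Psmb9*, *Psmb10* and *Psmb11* did not overlap between the ages in controls, as in 20.3% of genes, nor did they in the cKO, where those of *Psmb7* were also separate and lower at E14.5 (14.9% of genes). The difference between the 2 genotypes was tested as an interaction, and no member and 0% of all genes were called (604 genes at an unadjusted p under 0.05 in edgeR, 0 called by limma-voom and 193 by DESeq2). The calls in each genotype depended on single libraries: leaving out any 1 of the 6 control libraries left 1 to 2 of the 4, and leaving out 1 of the 6 cKO libraries left 0 to 2 of the 2 (0 without E12.5 cKO replicate 3), while the 4 calls with both genotypes together remained without any of the 12 libraries.

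The proportions within each catalytic position moved with age. *Psmb11* made up 9.59% ± 5.33 (SD, n = 3) of the β5-type transcripts (*Psmb5*, *Psmb8* and *Psmb11* in CPM per kb of summed exons) in controls and 10.7% ± 2.61 in cKO at E12.5, against 24.8% ± 2.46 in PLET1+ controls and 39.8% ± 3.42 in PLET1+ cKO at E14.5. By library these were 15.1, 9.17 and 4.48%, then 11.1, 13.1 and 7.97%, then 24.4, 27.4 and 22.5%, and then 36.1, 42.9 and 40.2%, with no overlap between the ages or between the genotypes at E14.5. The difference in share between the genotypes was not tested. In cKO replicate 1, at 36.1%, *Psmb11* itself was below the controls (377 CPM against 386 to 490), and *Psmb5* was at 135 CPM against 253 to 271. *Psmb8* never exceeded 1.26% of the β5 type in the *Rbpj* cross. *Psmb9* made up 0.285% of the β1 type in E12.5 controls and 5.19% ± 1.77 in E14.5 PLET1+ controls, and *Psmb10* 36.5% ± 7.44 and 66.4% ± 5.06 of the β2 type (SD, n = 3). Lengths of the principal transcripts left the *Psmb11* shares close (9.86% and 25.2% in these groups) and lowered those of *Psmb10* to 20.4% and 46.7%, while the fold between groups in each ratio does not depend on length. The ratio of *Psmb11* to *Psmb5* was 4.44-fold higher at E14.5 (exact permutation test over 6 against 6 libraries, two-sided, p = 0.00216, the smallest possible, and 0.00902 after adjustment over the 25 ratio tests). The ratios of *Psmb9* to *Psmb6* and of *Psmb10* to *Psmb7* were higher by 4.51 and 1.96 on the log2 scale, with the same p-values of the exact permutation test.

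**Figure D2:**
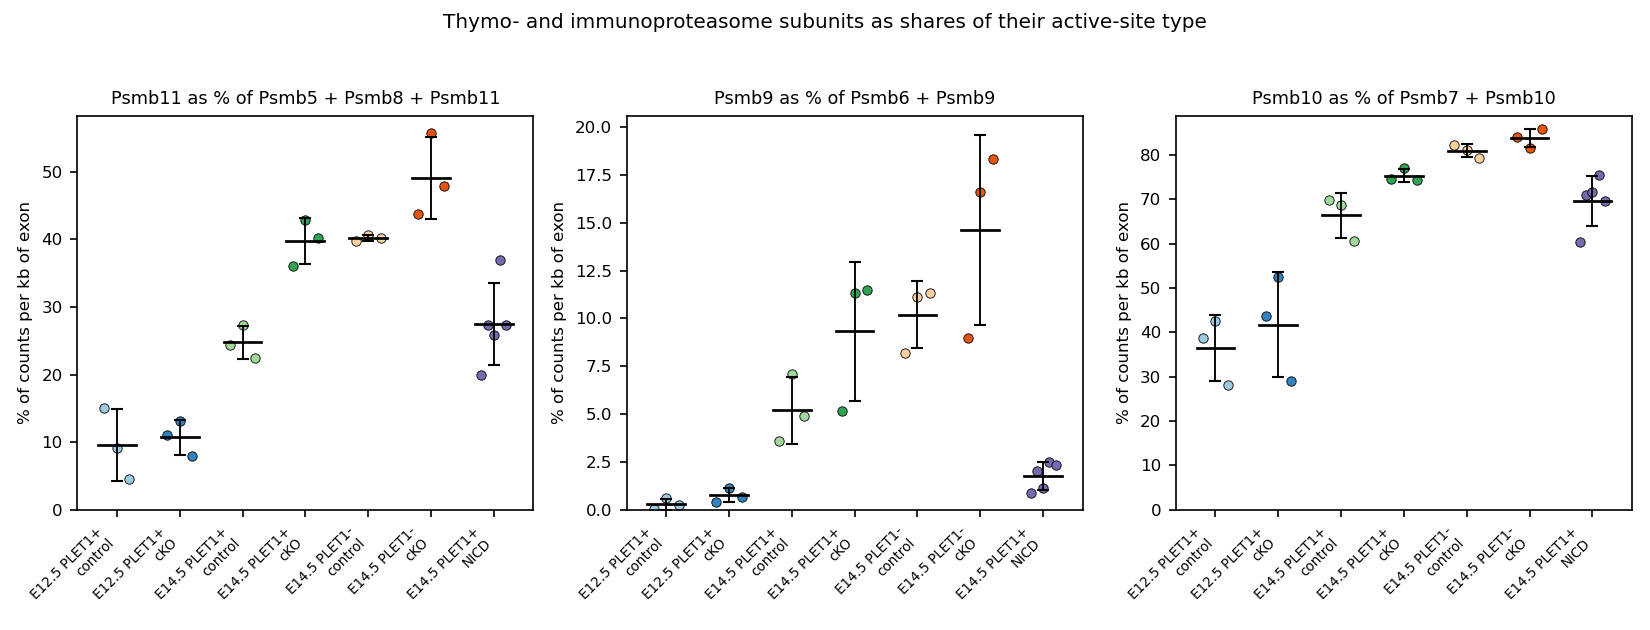
Shares (%) of *Psmb11* in the β5 type, *Psmb9* in the β1 type and *Psmb10* in the β2 type, per kb of summed exons. Points are libraries, horizontal bars group means and vertical bars 1 SD. The *Psmb11* share of the β5 type goes from 9.59% in E12.5 controls to 49.1% in PLET1- cKO, while the *Psmb9* share of the β1 type stays at or under a mean of 14.6%.

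The other genes of the proteasome were tested in the same comparison of the ages, with 5.15% of all genes called. None of the 7 α subunits and none of the 4 non-catalytic β subunits of the 20S core was called (median log2 differences of -0.06 in both, against 0.234 over all genes), nor was any of the 5 assembly chaperones, among them *Pomp* (-0.12, adjusted p = 0.896, edgeR). Of 18 subunits of the 19S regulatory particle in the table, which feeds substrates into the core, 4 rose: *Psmd1* by 1.23 (adjusted p = 0.0264), *Psmd2* by 1.25 (0.00647), *Psmd11* by 0.85 (0.0124) and *Psmd13* by 2.04 (0.00808, edgeR). Of the 5 activator and inhibitor genes, *Psme4*, which encodes the PA200 activator, fell by 1.5 on the log2 scale (adjusted p = 0.000876, edgeR), and the interferon-inducible *Psme1* (-0.19, adjusted p = 0.957) and *Psme2* (0.18, adjusted p = 0.793) were not called.

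The genes that load peptides on MHC class I, which work on the products of these subunits, rose in 8 of 11 cases between E12.5 and E14.5 (median log2 difference 2.24 against 0.234 over all genes). They included the peptide transporter subunits *Tap1* (5.53, adjusted p = 0.000269) and *Tap2* (at least 43.3-fold, 0.0094, edgeR), the class I light chain *B2m* (2.24, 1.43e-05) and the heavy chains *H2-K1* (3.71, 0.00203) and *H2-D1* (6.39, 8.87e-06, edgeR). Of 7 regulators of proteasome genes, 5 rose, among them *Irf1* (3.38, adjusted p = 0.000347), *Irf8* (2.96, 0.00851) and *Nfe2l2* (1.21, 0.00804, edgeR). *Nlrc5*, the activator of class I genes, was called too, from at most 1 count in each E12.5 library. *Foxn1*, which activates *Psmb11*, was 1.59 higher without being called (adjusted p = 0.0759, edgeR). The study itself showed *Psmb11* and 5 other cTEC genes for these samples, so none of them is independent evidence of direction. Of these other 5, 4 rose: *Prss16* by 1.85, *Dll4* by 2.55, *Ctsl* by 1.01 and *Krt8* by 0.91, while *Ly75* differed by 0.58 (adjusted p = 0.171, edgeR).

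The second question was how PLET1- differed from PLET1+ TECs at E14.5. *Psmb9*, *Psmb10* and *Psmb11* were higher in PLET1- libraries by 0.87 (SE 0.502), 0.89 (SE 0.196) and 0.91 (SE 0.276) on the log2 scale over both genotypes, and none was called (adjusted p = 1, 0.578 and 1, edgeR). The other 4 members differed by -0.09 to 0.15 (adjusted p = 1 for each, edgeR). No gene at all was called there, 0% of 19140, with 860 at an unadjusted p under 0.05 in edgeR, 3 called by limma-voom and 209 by DESeq2. *Psmb10* and *Psmb11* were at an unadjusted p of 0.000272 and 0.00426 in the edgeR fit, and DESeq2 called *Psmb10* (adjusted p = 0.00286). The replicate numbers pair libraries here, and with the number as a block edgeR called *Psmb9* (0.86, adjusted p = 0.0467) while *Psmb10* (adjusted p = 0.0775) and *Psmb11* (0.111) were not called.

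In controls the differences were 1.06 for *Psmb9*, 0.96 for *Psmb10* and 0.98 for *Psmb11*, and in the cKO 0.69, 0.82 and 0.83 (log2, adjusted p = 1 for each, edgeR). The 3 subunits were higher in every PLET1- library than in any PLET1+ library of the same genotype, a separation in either direction that 9.69% of genes had in controls and 6.59% in the cKO. With both genotypes together, only *Psmb10* among the members kept it, against 0.502% of genes.

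The ratio of *Psmb10* to *Psmb7* was 1.91-fold higher in PLET1- TECs (exact permutation test, 6 against 6 libraries, p = 0.00216, adjusted 0.00902) and that of *Psmb11* to *Psmb5* 1.73-fold (p = 0.0173, adjusted 0.0372). That of *Psmb9* to *Psmb6* differed by 0.93 on the log2 scale without being called (exact permutation test, p = 0.039, adjusted 0.0649). When signs were flipped within the 6 pairs of equal replicate number and genotype, the smallest p allowed was 0.0312. The ratios of *Psmb11* to *Psmb5*, *Psmb9* to *Psmb6* and *Psmb10* to *Psmb7* reached it (adjusted p = 0.0595, sign-flip permutation test). No ratio was called, but at that limit this says nothing about the stability of these ratios. *Psmb11* made up 39.8, 40.6 and 40.2% of the β5 type in PLET1- controls and 43.8, 55.7 and 47.9% in PLET1- cKO, and *Psmb10* 80.9% ± 1.47 and 83.8% ± 2.08 (SD, n = 3) of the β2 type. The 7 cTEC markers, *Psmb11* among them, summed to 9460 to 11800 CPM in PLET1- controls against 5830 to 7860 CPM in PLET1+ controls, and the 6 medullary markers to a mean of 119 CPM against 538 CPM. The 6 mesenchymal markers summed to 5.19 to 916 CPM in PLET1- controls against 0.854 to 10.5 CPM in PLET1+ controls, and to 19.6 to 490 CPM against 5.68 to 20.2 CPM in the cKO. The 3 parathyroid markers had means of 778 CPM against 131 CPM in controls and 164 CPM against 4.11 CPM in the cKO. The part of these markers in the differences of the subunits was not tested.

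The third question was how *Rbpj* cKO and control TECs differed. None of the 7 members was called in any of the 3 comparisons of cKO with control, where 0% of genes were called in E14.5 PLET1+ cells, 0% in E14.5 PLET1- cells and 0.0261% in E12.5 cells. Over all genes, edgeR gave 395, 447 and 725 genes at an unadjusted p under 0.05, limma-voom called 0 in each and DESeq2 called 100, 160 and 318. Of the members, *Psmb10* at E12.5 had an unadjusted p under 0.05 in edgeR, and neither limma-voom nor DESeq2 called a member.

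The libraries of some members did not overlap between the genotypes. In E14.5 PLET1+ cells *Psmb9* was 2.06-fold and *Psmb10* 1.41-fold higher in the cKO with no overlap between libraries, as in 7.64% of genes, at log2 differences of 1.04 (SE 0.711) and 0.51 (SE 0.276) and adjusted p-values of 1 in edgeR. *Psmb11* was 0.71 higher (SE 0.391, adjusted p = 1, edgeR), with replicate 1 of the cKO, at 377 CPM, below the 3 controls. In PLET1- cells *Psmb9* was 1.58-fold and *Psmb11* 1.48-fold higher with no overlap, as in 5.83% of genes, at log2 differences of 0.67 and 0.56, and *Psmb10* was 0.37 higher (adjusted p = 1 for each, edgeR). At E12.5 *Psmb10* was 1.6-fold higher with no overlap, as in 5.98% of genes, at a log2 difference of 0.67 (SE 0.278, adjusted p = 1, edgeR). There *Psmb9* and *Psmb11* differed by 1.53 (SE 0.729) and 0.16 (SE 0.403, adjusted p = 1 for each, edgeR). *Psmb5*, *Psmb6*, *Psmb7* and *Psmb8* differed by -0.49 to 0.24 in E14.5 PLET1+ cells and by -0.36 to 0.19 in PLET1- cells (adjusted p = 1 for each, edgeR). The first 3 of them differed by -0.13 to 0.32 at E12.5 (adjusted p = 1 for each, edgeR), where *Psmb8* had no counts.

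Within batches at E14.5, the differences of *Psmb9* were 1.05 and 1.02 on the log2 scale in PLET1+ cells and 0.611 and 0.777 in PLET1- cells, and those of *Psmb11* were 0.501 and 1.15 and then 0.54 and 0.604. At E12.5 those of *Psmb11* were 0.717 in the batch of replicates 1 and 2 and -0.988 in that of replicate 3, so they had opposite signs. The 6 medullary markers summed to 71.1 to 192 CPM in the cKO against 410 to 669 CPM in controls in E14.5 PLET1+ cells. They summed to a mean of 63.4 CPM against 119 CPM in PLET1- cells and to 29.7 to 89.1 CPM against 97.2 to 157 CPM at E12.5. The 7 cTEC markers, *Psmb11* among them, summed to 9040 to 12000 CPM against 5830 to 7860 CPM in E14.5 PLET1+ cells and to 11900 to 17500 CPM against 9460 to 11800 CPM in PLET1- cells, and overlapped at E12.5. *Ctsl* and *Ccl25* had the largest means in these sums. *Foxn1* alone of the list had lower means in the cKO at E14.5, 91.9 CPM against 144 CPM in PLET1+ cells and 143 CPM against 223 CPM in PLET1- cells. The part of these markers in the differences of the subunits was not tested. The cKO effect did not differ by a called amount between PLET1+ and PLET1- cells for any member (interaction, 0% of genes called by edgeR with 502 at an unadjusted p under 0.05, 0 called by limma-voom and 107 by DESeq2).

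**Figure D3:**
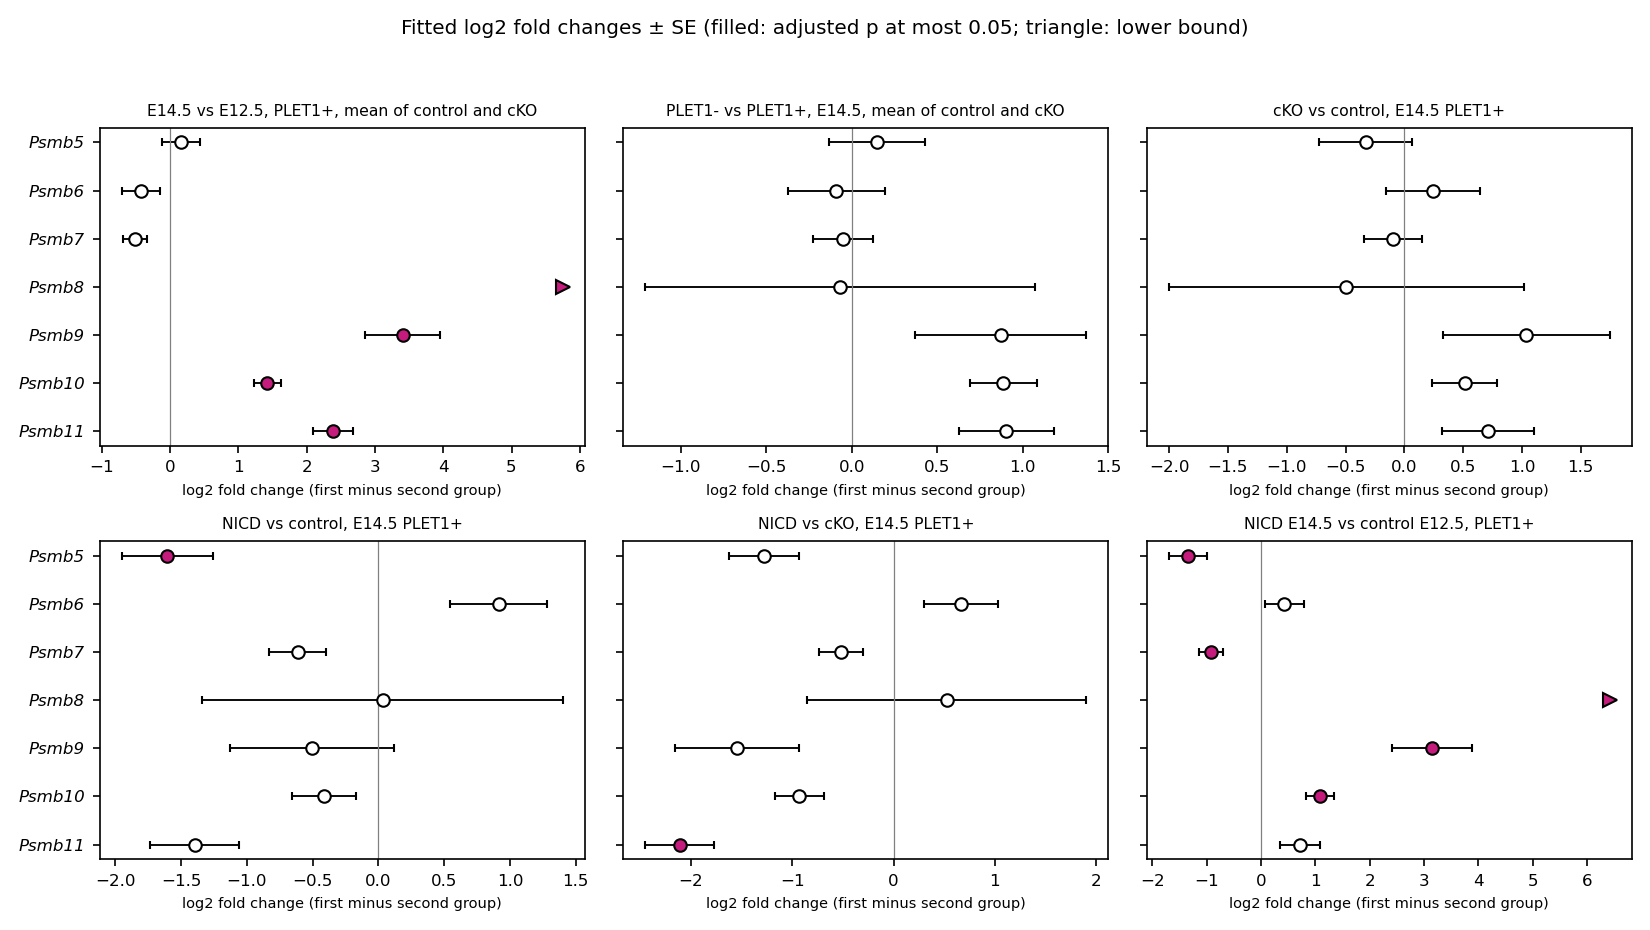
Log2 fold change of each member (edgeR, points with bars of 1 SE) in the main comparisons, with called members marked. *Psmb8* is shown at its lower bound where E12.5 libraries are at 0, the 3 immunoproteasome subunits and *Psmb11* lie above 0 with age, and *Psmb5* (-1.61) and *Psmb11* (-1.40) lie lowest for NICD against control.

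The fourth question was how TECs with the NICD allele differed from the others. Against E14.5 PLET1+ controls, *Psmb5* fell in NICD by 1.61 on the log2 scale (SE 0.347, adjusted p = 0.0401, edgeR), with means of 86.5 CPM ± 25.6 (SD, n = 5) in NICD and 263 CPM ± 9.41 (SD, n = 3) in controls. It was the only member called, where 0.684% of genes were. *Psmb11* stood lower by -1.40 (SE 0.340), at 163 CPM ± 51.4 against 426 CPM ± 55.8, and just missed the threshold (adjusted p = 0.0728, edgeR). The libraries of *Psmb5*, *Psmb7* and *Psmb11*, all lower, and of *Psmb6*, higher, did not overlap between NICD and controls, as in 11.7% of genes.

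The other members were not called: *Psmb6* 0.91 (adjusted p = 0.239), *Psmb7* -0.61 (0.185), *Psmb8* 0.03 (1), *Psmb9* -0.51 (0.786) and *Psmb10* -0.42 (0.434, edgeR, log2 scale). The call of *Psmb5* was lost on leaving out any of 6 of the 8 libraries: its adjusted p in edgeR was 0.116, 0.171 and 0.124 without control replicates 1, 2 and 3, and 0.0609, 0.0894 and 0.0884 without NICD replicates 1, 3 and 4. With scaling to housekeeping genes, which moved the median of all genes by 0.351, *Psmb5* was -1.30 (adjusted p = 0.113, edgeR), and the genes called over the whole table went from 51 higher and 80 lower to 325 higher and 88 lower. *Psmb6* was called there (1.29, adjusted p = 0.0238, edgeR) and without a filter (0.91, adjusted p = 0.0395, edgeR), and with the mitochondrial share as a covariate it differed by 0.17 (adjusted p = 0.955, edgeR). limma-voom, DESeq2 and the fit without a filter called both *Psmb5* and *Psmb11* (adjusted p of *Psmb11* = 0.0112, 0.00262 and 0.000874).

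*Psmb5* and *Psmb11* both stood lower in NICD, and no difference in their ratio was called. *Psmb8* made up 0.00914 to 3.85% of the β5 type in NICD against 0.164 to 1.26% in controls. *Psmb11* made up 20, 27.3, 25.8, 36.9 and 27.4% of the β5 type in NICD against 24.4, 27.4 and 22.5% in controls, and the ratio of *Psmb11* to *Psmb5* differed by 0.21 on the log2 scale (exact permutation test, 5 against 3 libraries, p = 0.518, adjusted 0.647). That of *Psmb9* to *Psmb6* was 3.15-fold lower in NICD (p = 0.0179, the smallest the exact permutation test allows, adjusted 0.0372), at *Psmb9* shares of 0.887 to 2.48% of the β1 type against 3.57 to 7.07%, and it was the only ratio of 5 called. The ratio of *Psmb10* to *Psmb7* differed by 0.221 (adjusted p = 0.517, exact permutation test), and *Psmb10* made up 69.6% ± 5.65 (SD, n = 5) of the β2 type in NICD and 66.4% ± 5.06 (SD, n = 3) in controls.

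**Figure D4:**
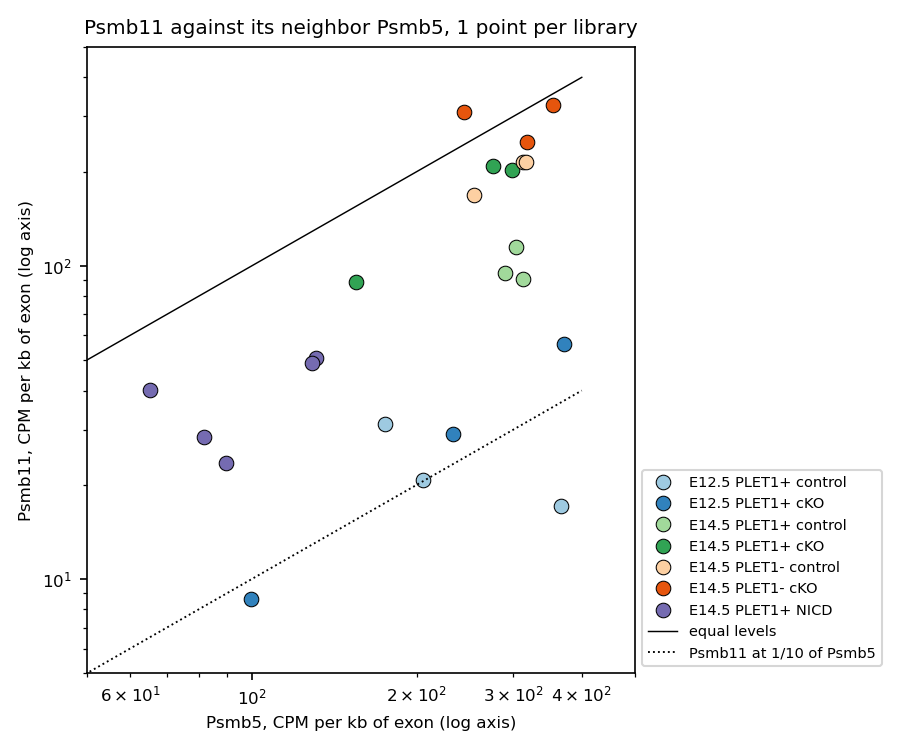
*Psmb11* against *Psmb5* (both in CPM per kb of summed exons, log axes) in the 23 libraries, colored by group, with a solid line of equal levels and a dotted line of a constant lower ratio. The 5 NICD libraries lie left of every other E14.5 library (mean of *Psmb5* 99.4 CPM per kb against 302 in PLET1+ controls) and overlap those controls in their distance from the solid line, while the 6 E12.5 libraries lie farther below it.

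Against E14.5 PLET1+ cKO, *Psmb11* fell in NICD by 2.11 on the log2 scale (SE 0.341, adjusted p = 0.00374, edgeR) and was the only member called, where 1.38% of genes were. It remained called without any 1 of the 8 libraries of the comparison. *Psmb5* stood at -1.28 (adjusted p = 0.0743), *Psmb9* at -1.55 (0.215) and *Psmb10* at -0.93 (0.0634, edgeR), and these, with *Psmb11*, were lower in every NICD library than in any cKO library, as in 9.48% of genes in either direction. *Psmb6* stood at 0.67 (adjusted p = 0.386), *Psmb7* at -0.52 (0.24) and *Psmb8* at 0.52 (0.92, edgeR, log2 scale). The ratio of *Psmb9* to *Psmb6* was 5.78-fold lower (exact permutation test, p = 0.0179, adjusted 0.0372), and that of *Psmb11* to *Psmb5* differed by -0.796 (p = 0.0714, adjusted 0.112).

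Against E12.5 PLET1+ controls, 5 members were called in NICD cells, where 2.81% of genes were. *Psmb9* rose by 3.14 (adjusted p = 0.0256) and *Psmb10* by 1.09 (0.0274), *Psmb8* was at least 85.5-fold higher over the group mean (0.0194), and *Psmb5* fell by 1.35 (0.0489) and *Psmb7* by 0.93 (0.0256, edgeR, log2 scale). *Psmb11* was 0.72 higher (adjusted p = 0.316) and *Psmb6* 0.43 (0.605, edgeR). The mean of *Psmb8* rests on 3 NICD libraries, and the other 2, at 0.0276 and 0.0882 CPM, are about at the level that 0 counts allow at E12.5. All members but *Psmb11* had libraries that did not overlap, as in 10.5% of genes, but *Psmb8* only because E12.5 had 0 counts. Its NICD library with 2 counts is below the floor of 3. These calls depended on single libraries: without E12.5 control replicate 3 none of the 5 was called (adjusted p = 0.671, 0.141, 1, 0.14 and 0.0502 for *Psmb5*, *Psmb7*, *Psmb8*, *Psmb9* and *Psmb10*, edgeR), and no omission of 1 library left more than 4. The ratios of *Psmb11* to *Psmb5*, *Psmb9* to *Psmb6* and *Psmb10* to *Psmb7* were 4.05-fold, 11.9-fold and 4.07-fold higher in NICD (exact permutation test, 5 against 3 libraries, adjusted p = 0.0372 for each).

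No gene of the other proteasome, peptide loading, regulator or cTEC lists was called between NICD and E14.5 PLET1+ controls. The list medians were 0.315 for α subunits, 0.232 for non-catalytic β subunits, 0.093 for the 19S particle, 1.09 for activators, -0.77 for regulators, -0.211 for class I loading and -0.654 for cTEC genes, against -0.507 for the 7 catalytic subunits and 0.0351 for all genes (log2). The genes nearest to a call in their lists were the NOTCH ligand gene *Dll4* (-2.72, adjusted p = 0.0847) and *Psme4* (1.16, 0.0863, edgeR). *Foxn1* was at 41.3 CPM in NICD and 144 CPM in controls (-1.83, adjusted p = 0.162, edgeR), and *Irf1* at 114 CPM against 424 CPM (-1.87, adjusted p = 0.115, edgeR). The 6 medullary markers summed to 1030 to 2000 CPM in NICD against 410 to 669 CPM in controls, and the 7 cTEC markers to 2500 to 5310 CPM against 5830 to 7860 CPM. Most of the medullary sum was *Krt5*, with means of 1320 CPM in NICD and 365 CPM in controls. *Tnfrsf11a* and *Cldn3* also had higher means in NICD. *Krt14* (51.5 against 59.9 CPM), *Cldn4* (41 against 96.9 CPM) and *Aire* (0.666 against 2.29 CPM) had lower ones. The 6 mesenchymal markers summed to 22.8 to 245 CPM against 0.854 to 10.5 CPM, and the mitochondrial share was 9.6 to 12.8% against 4.5 to 9.54%. Their part in the differences of the subunits was not tested beyond the covariate fit with the mitochondrial share.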

How the data were processed

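The deposited table holds raw read counts per gene, made by the authors from 75 bp paired reads trimmed with Trimmomatic 0.32, aligned with STAR 2.5.1a and counted without strand with featureCounts (1.5.1 in the submitters' processing notes, 1.5.0-p3 in the file header) over GENCODE M12 exons of GRCm38. Fragments that mapped to several places or overlapped several genes were not counted, so genes with close copies or overlaps are undercounted. The annotation named 98.4% of the identifiers. Depth was 20053241 to 92699969 counts per library, and a floor of 3 counts corresponds to 3.24e-06 to 1.5e-05% of a library and covers counting error only. No pair of libraries was a duplicate (highest correlation 0.982).

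Groups, replicate numbers and batches came from the labels. The counts were fitted with edgeR 4.0.16 (quasi-likelihood, TMM factors, filterByExpr, all 23 libraries, 7 group means and 2 batch terms, within E12.5 and within the E14.5 *Rbpj* cross) in R 4.3.3, with limma 3.58.1 and DESeq2 1.42.0 as alternatives. P-values are two-sided and adjusted by Benjamini-Hochberg over the 19140 genes of each of 14 comparisons, with a threshold of 0.05 for a call. The study's own test was limma-voom. CPM were scaled by TMM factors and divided by the summed exon length, or the principal transcript length, for comparisons between genes. Ratios were taken per library from counts + 0.5 and compared by exact permutation over libraries, with adjustment over 25 tests. Ratios that include *Psmb8* at E12.5 rest on that added count and are not given as folds.

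All 7 members were tested in every comparison, and other genes were taken through lists of proteasome subunits, regulators, class I loading, cTEC genes and cell type markers. The members and lists were chosen with earlier results of these data known. Of the 19S list, 18 of 19 names were in the table. Some genes of the lists are not reported here. The cTEC genes, and *Psmb11* with them, are those the study showed for these samples and are not independent evidence of direction.

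Replicate numbers were taken to pair libraries where the deviations of same-numbered libraries from their group means correlated above 0.1 in every pair. They did so within E14.5 *Rbpj* groups: 0.421, 0.37 and 0.226 between cKO and control in PLET1+ cells, 0.497, 0.244 and 0.297 in PLET1- cells, 0.428, 0.322 and 0.293 between PLET1- and PLET1+ controls, and 0.493, 0.406 and 0.356 between PLET1- and PLET1+ cKO. The scripts were tested on simulated data. Software for ratios and figures was Python 3.11.15.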

Additional observations from a re-analysis of the deposited data

How the results depend on the processing

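The 4 subunits called between E12.5 and E14.5 with both genotypes together were called under all 10 alternatives and without each of the 12 libraries in turn. Elsewhere the number of members called moved as follows, and the cause was not tested. For NICD against control (1 called), it was 3 with no filter, 2 with limma-voom and 2 with DESeq2, and 0 with only the compared groups, with the replicate block and with the share of mitochondrial counts as a covariate, an alternative chosen after seeing the data. For NICD against cKO (1 called), it was 2 with RLE factors, 2 with housekeeping scaling, 3 with no filter, 4 with limma-voom, 3 with DESeq2, and 0 with only the compared groups and with the block. For NICD against E12.5 control (5 called), it was 3 with housekeeping scaling and 0 with only the compared groups and with the block. For age in controls (4 called), it was 2 with housekeeping scaling, 1 with the mitochondrial covariate, and 0 with only the compared groups and with the block. For age in the cKO (2 called), it was 1 with housekeeping scaling, limma-voom and the mitochondrial covariate, 4 with no filter and with DESeq2, and 0 with only the compared groups and with the block. For PLET1- against PLET1+ over both genotypes (0 called), it was 1 with DESeq2 and 1 with the block. Leaving out 1 library gave 0 to 1 members for NICD against control, 0 to 4 for NICD against E12.5 control, 1 to 2 for age in controls and 0 to 2 for age in the cKO.

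Of the ratios, 5 were called with age, 3 once libraries under 10 counts were left out and 0 with the replicate block, and 2 were called for PLET1- against PLET1+, with 0 under the block and 1 to 3 without single libraries. Under the block all 5 ratios with age, and both ratios called for PLET1- against PLET1+, had the smallest p that sign flips allow (0.0312, adjusted 0.0595, sign-flip permutation test). Their loss under the block therefore says nothing about their stability. For each of the 3 NICD comparisons 0 ratios were called with any 1 library left out. The smallest p that the test allows is higher there. The ratio of *Psmb9* to *Psmb6* between NICD and control was at that smallest p without control replicate 1 (adjusted p = 0.085, exact permutation test). Without control replicate 2 or 3 it was above it (adjusted p = 0.149 for each, exact permutation test), so its loss there was not due to that limit alone. For the other ratios called in these comparisons, the loss says nothing about their stability. Replicate numbers did not pair libraries at E12.5, between ages or with NICD, and the block fits there use numbers only (correlations of 0.0354, -0.0819 and 0.00213 at E12.5).

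Direction turned in few cases. *Psmb8* between NICD and control was -0.0436 without batch terms, -1.93 with limma-voom, -1.01 with the block and -0.69 with the mitochondrial covariate, and between NICD and cKO -1.82, -0.53 and -0.49 with the last 3. With the mitochondrial covariate *Psmb6* was -0.0418 for NICD against cKO and 0.44, 0.37 and 0.40 for age in controls, in the cKO and in both, and *Psmb7* was 0.0835 for age in controls. *Psmb11* between cKO and control at E12.5 was -0.19 with housekeeping scaling. With libraries under 10 counts left out, the log2 ratio of *Psmb8* to *Psmb5* differed by 2.85 between NICD and control and by 2.65 between NICD and cKO, and that of *Psmb11* to *Psmb8* by -2.59 between NICD and control. With 1 library left out, log2 differences that crossed 0 ranged from -0.31 to 0.72 for *Psmb11* between cKO and control at E12.5, from -0.087 to 1.20 for *Psmb5* with age in controls, -0.64 to 0.53 in the cKO and -0.14 to 0.71 in both, and from -0.55 to 0.96 for *Psmb8* between NICD and control. The log2 ratio of *Psmb8* to *Psmb5* differed by -1.11 to 1.01 between NICD and control, -1.30 to 0.82 between NICD and cKO and -0.43 to 0.17 between PLET1- and PLET1+, and that of *Psmb11* to *Psmb8* by -0.77 to 1.42 between NICD and control and -1.58 to 0.61 between NICD and cKO.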
